A study of Mus musculus with 52 samples.

Results

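Wild-type spinal cord was compared with wild-type cerebral cortex in adult mice, in 11 RNA-seq libraries chosen by their titles out of 52 in the series. The 6 spinal cord and 5 cortex libraries came from FVB/NJ mice that carried no transgene and received vehicle, in cord 3 females and 3 males and in cortex 2 females and 3 males, each 36 weeks old. The remaining libraries of the series are wild-type skeletal muscle and 3 tissues of mice transgenic for PFN1 with the C71G mutation, a mutation of familial amyotrophic lateral sclerosis (ALS), given vehicle or an AAV meant to knock down Atxn2. The wild-type libraries carry neither, and their comparison describes how the regions differ in the adult mouse. Each library is poly(A) RNA from an aliquot of powdered tissue, so it averages over every cell type of the sample, and fewer cells of a type cannot be told apart from less RNA per cell. The labels do not say which part of the cord or of the cortex was powdered, nor whether a cord and a cortex library share a mouse, so p-values measure the spread between these samples.

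The body plan of the vertebrate nervous system is laid down in the embryo by transcription factors that many neurons keep for life. In the forebrain, factors such as Emx1, Emx2 and Tbr1 specify the telencephalon and the excitatory neurons of the cortex, and the Dlx and Lhx6 factors specify its GABAergic interneurons. In the hindbrain and cord, the Hox genes, which lie in 4 clusters, are expressed in an order along the body axis that follows their order in the cluster, while factors such as Lbx1, Pax2, Lmx1b and Mnx1 mark classes of dorsal interneurons and motor neurons. The cord also differs from the cortex in its transmitters, since many of its inhibitory neurons release glycine, and in its tissue plan, since white matter surrounds its grey matter.

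Promoter sequences of 4 genes are shown because the results on regional factors and transmitters turn on them: Hoxb8 and Tbr1, a cord and a cortex transcription factor, and Slc17a6 and Slc17a7, the vesicular glutamate transporters VGLUT2 and VGLUT1. Each is the 250 bases before a RefSeq transcription start (assembly GRCm38.p6, plus strand, 5′ to 3′). Capitals mark matches on either strand to the homeodomain cores TTTAT (reverse complement ATAAA) and TAATTA, and overlapping matches were counted.
Hoxb8, chr11:96281655-96281904: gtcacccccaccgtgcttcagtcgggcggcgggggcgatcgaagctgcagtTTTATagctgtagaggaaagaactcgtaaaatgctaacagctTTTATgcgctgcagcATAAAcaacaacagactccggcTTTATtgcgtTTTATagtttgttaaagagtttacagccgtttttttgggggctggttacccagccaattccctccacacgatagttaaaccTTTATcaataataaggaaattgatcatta
Tbr1, chr2:61804203-61804452: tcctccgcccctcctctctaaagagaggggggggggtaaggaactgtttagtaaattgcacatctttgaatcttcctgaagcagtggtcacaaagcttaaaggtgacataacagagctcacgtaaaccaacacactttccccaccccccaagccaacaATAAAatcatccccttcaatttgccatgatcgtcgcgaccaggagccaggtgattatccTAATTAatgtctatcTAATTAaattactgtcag
Slc17a6, chr7:51621580-51621829: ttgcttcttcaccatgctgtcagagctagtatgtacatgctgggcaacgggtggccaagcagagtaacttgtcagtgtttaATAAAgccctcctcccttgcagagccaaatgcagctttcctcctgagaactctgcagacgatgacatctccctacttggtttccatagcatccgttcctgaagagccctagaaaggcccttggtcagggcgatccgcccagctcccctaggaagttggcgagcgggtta
Slc17a7, chr7:45163671-45163920: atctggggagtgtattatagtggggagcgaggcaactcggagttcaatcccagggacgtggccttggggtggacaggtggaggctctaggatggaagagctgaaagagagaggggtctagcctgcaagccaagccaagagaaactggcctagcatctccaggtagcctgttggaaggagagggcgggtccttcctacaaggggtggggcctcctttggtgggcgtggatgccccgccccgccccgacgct
The Hoxb8 promoter holds 6 TTTAT cores, as many as or more than which 0.393% of 32851 promoters of the same length hold. The Tbr1 promoter holds 2 TAATTA cores (0.444% of promoters hold as many) and 1 TTTAT core. Slc17a6, the first of 2 listed starts, has 1 TTTAT core, which 37.3% of promoters have, and Slc17a7 has no match. Over the Hox list, 22 of 39 genes had a promoter in the table, and 8 of them (36.4%) held a TTTAT core, against 38.1% of all genes in the table. These matches describe letters in a window and say nothing about binding.

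The libraries held 67.5 to 109.3 M counts, with 25501 to 27325 genes above 0. RNA integrity numbers were 7.2 to 8.3 in cord and 7.3 to 7.9 in cortex, and cord replicate 3 had the highest. The first principal component, 75.5% of the variance, separated the tissues. The mitochondrial genome gave 7.77 ± 0.38% of counts in cord and 8.59 ± 0.304% in cortex (SD, n = 6 and 5), lower in cord by an exact two-sided permutation test (p = 0.00866), although 1 cord library lay above the lowest cortex library. This share takes in every mitochondrial gene counted. Of the 13 listed mitochondrial genes, a part of these, 3 were called lower and 10 were not called (median log2 fold change −0.09). Markers of neighbouring tissue set single libraries apart within each group, and they are given here before the results they touch. The summed level of 13 striatal genes was 1515 and 1645 CPM in cortex replicates 2 and 5 and 689 to 723 CPM in the other 3. Adora2a, the adenosine receptor of striatal projection neurons, stood at 7.9, 34.3, 9.29, 9.02 and 41.8 CPM in replicates 1 to 5. Transthyretin (Ttr), made by the choroid plexus, stood at 704, 15.8, 90.2, 102 and 61.7 CPM. Growth hormone (Gh), a pituitary transcript, stood at 0.211, 0.105, 218, 25.3 and 36.7 CPM. In cord, the Schwann cell myelin gene Prx stood at 18.1, 37.8, 0.338, 98.9, 0.319 and 67.6 CPM in replicates 1 to 6. Defining markers of cord and cortex matched the labels in all 11 libraries, as the forebrain factors and Hox genes show.

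The regional difference covered most of the transcriptome. Values are CPM, counts brought to a common library size after TMM scaling, and a gene is called where the Benjamini-Hochberg adjusted p of edgeR's quasi-likelihood test lay under 0.05. Of 20898 genes tested, 14755 (70.6%) were called, 7485 higher in cord (35.8%) and 7270 lower (34.8%). With so many calls, a call by itself says little about a gene, and the size of the difference or the values of the libraries are given beside it. Called genes at least 2-fold higher in cord numbered 2273 (10.9%), and those at least 2-fold lower 2684 (12.8%). When genes were kept only at 1 CPM or more in 5 libraries, these counts were 1362 and 1483. In 5695 genes (27.3%) the 6 cord libraries all lay above the 5 cortex libraries, and in 5229 (25.0%) all lay below. In the remaining 9974 (47.7%) they overlapped.

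The same difference was measured again in transgenic libraries, which share no sample with the wild-type ones and come in part from older mice. They were grouped by title, and in 2 of 6 cord libraries of each transgenic arm the library name gives the other arm, so the arms are not compared. Of the genes at least 2-fold higher in wild-type cord, 2152 were also tested between cord and cortex of transgenic mice titled as vehicle, and 99.2% had the same direction (92.0% were called as well, against 64.8% of all genes called there in either direction). Of the genes at least 2-fold lower, 2528 were tested, and 98.0% had the same direction. In transgenic mice titled as given the vector, the shares were 99.2% and 98.5%. No gene's regional difference was called as different between females and males (edgeR's quasi-likelihood interaction test, 0 of 21508), and 894 genes (4.16%) had an unadjusted p under 0.05.

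Forebrain transcription factors were among the genes that differed most between the tissues. All 22 listed pallial factors, which build the cortex, were called lower in cord, 18 of them at least 2-fold, with a median log2 fold change of −3.74 against 0.00 over all genes. In 21 of the 22 every cord library lay below every cortex library, against 25.0% of all genes. The shares of all genes called lower and at least 2-fold lower were 34.8% and 12.8%. Genes high in cortex alone could pass the filter, so these counts only describe the list. Fezf2 (chr14:12342094-12348189 in GRCm38), which specifies the subcerebral projection neurons of layer 5, stood at 17.8, 18.8, 16.5, 24.6 and 16.2 CPM in cortex replicates 1 to 5. It had 2 counts in the 6 cord libraries together, a cortex to cord ratio of 5128 (95% counting interval 1419.5 to 42342). Otx1, another deep-layer factor, had 1 count in cord and 4.74 to 9.63 CPM in cortex. Emx1, which marks cortical progenitors and excitatory neurons, stood at 7.07, 9.13, 9.95, 9.85 and 7.81 CPM in cortex and at 0 in 4 of 6 cord libraries, with at most 0.0441 CPM in the others. Tbr1, the layer 6 factor whose promoter is shown above, stood at 75.7, 119.6, 104, 148 and 109 CPM in cortex and between 0.0441 and 0.172 CPM (median 0.151) in cord (log2 fold change −9.64 ± 0.21 SE, adjusted p = 9.66e-12).

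Not every layer marker was specific to cortex. Mef2c, an activity-dependent factor, was 395 to 563 CPM in cortex and 18.3 to 25.2 CPM in cord (log2 fold change −4.46 ± 0.11). Cux1 and Rorb, used as markers of the upper layers and of layer 4, differed by less than 2-fold, with log2 fold changes of −0.34 ± 0.07 and −0.86 ± 0.11. In cord Cux1 stood at 73.9 to 77.8 CPM, and it was the 1 factor of the list whose libraries overlapped, since cortex replicate 1 stood at 75.8 CPM. Among 14 listed factors of the ventral forebrain and its interneurons, 12 were called lower in cord and 1 higher, against 34.8% and 35.8% of all genes. Their median log2 fold change was −4.51. Lhx6, of interneurons born in the medial ganglionic eminence, stood at 17.1, 17.3, 17.2, 16.5 and 18.1 CPM in cortex and between 0.0684 and 0.225 CPM (median 0.121) in cord. Dlx1 stood at 16.9 to 20.2 CPM in cortex against 0.118 to 0.397 CPM in cord. Nkx2-1 had no count in cord and 0.119 to 1.07 CPM in cortex, at least 115-fold higher in cortex against a floor of 3 counts over the cord libraries. Prox1 was the member called higher in cord, at 39.8 ± 8.12 CPM against 22.4 ± 5.44 CPM (SD, n = 6 and 5), and Maf was not called (−0.03 ± 0.09, adjusted p = 0.811).

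**Figure D1:**
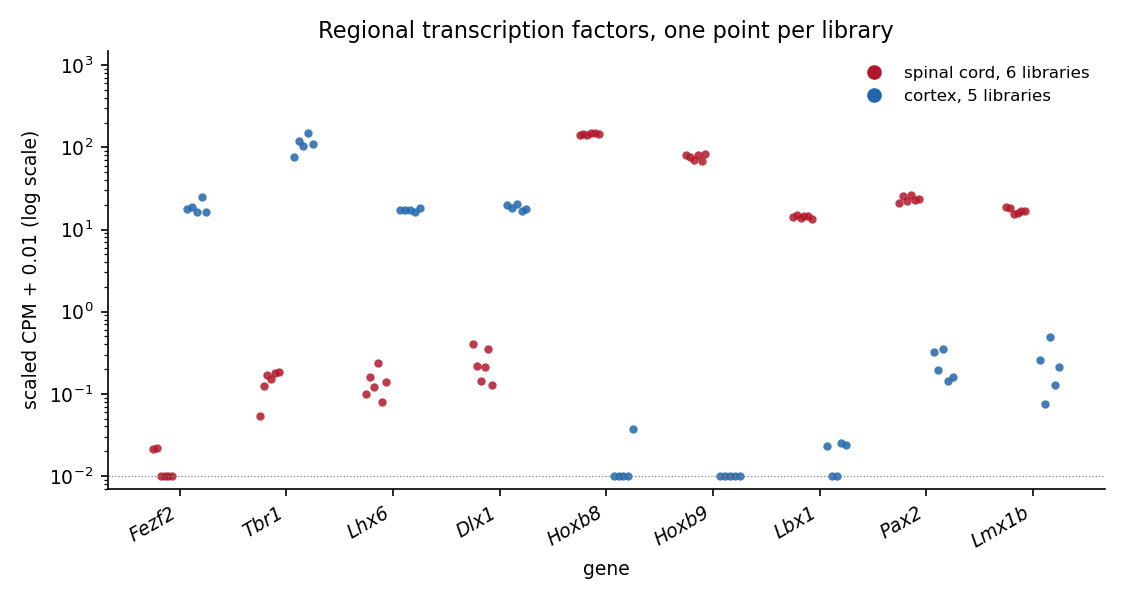
Scaled CPM of 9 regional transcription factors in each of the 11 libraries, on a log axis with 0.01 CPM added so that zeros can be drawn. Fezf2, Tbr1, Lhx6 and Dlx1 sit above 10 CPM in all 5 cortex libraries and under 1 CPM in all 6 cord libraries, and Hoxb8, Hoxb9, Lbx1, Pax2 and Lmx1b show the reverse.

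Hox genes were abundant in cord and all but absent from cortex. Of 39 listed Hox genes 35 passed the filter on low counts, and all 35 were called higher in cord, against 35.8% of all genes tested. Genes high in cord alone could pass the filter, so the count of calls supports nothing further, and the sizes are given instead. In 32 of the 35 the level was at least 100-fold higher in cord, by the fitted value or, with 3 or fewer cortex counts, by the ratio of pooled counts, with 0 counts set to a floor of 3 over the group. In the 5 cortex libraries 16 of the 35 had no count and 13 had 1 to 3 counts. All 39 genes together had 95 counts in cortex, and their summed level was 721 to 872 CPM in cord and 0.119 to 0.327 CPM in cortex. Hoxb8 stood at 141, 147, 141, 148, 150.4 and 146 CPM in cord replicates 1 to 6 and had 2 counts in cortex, a ratio of 26405 (95% counting interval 7309.7 to 218036). Hoxb9 stood between 69 and 82.6 CPM (median 78.5) in cord and had no count in cortex, at least 9253-fold higher in cord. Hoxa9, Hoxc8 and Hoxb6 also had none in cortex and were at least 4789-fold, at least 6289-fold and at least 3628-fold higher. Members under 100-fold included Hoxd13, at 0.0657 to 0.545 CPM in cord with 1 count in cortex, and Hoxd1, at 0.0131 to 0.145 CPM in cortex and 0.494 to 0.855 CPM in cord.

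Levels varied along the clusters. Per length of exon (TPM, in which each library has the same total), the sum over each paralog group, the genes with the same number in the 4 clusters, rose from 2.59 TPM for group 1 (median of the 6 cord libraries) through 53.2 for group 4 and 108 for group 7 to 296 for group 8. It then went down to 159.9 for group 9, 144 for group 10, 14.9 for group 11 and 0.461 for group 13. The Hoxb cluster gave the most, 425 to 455 TPM over its 10 genes, against 182 to 245 for Hoxc, 178 to 211 for Hoxa and 107 to 226 for Hoxd. Neighbouring Hox genes can share exons, so the authors' counting may have divided reads between them.

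**Figure D2:**
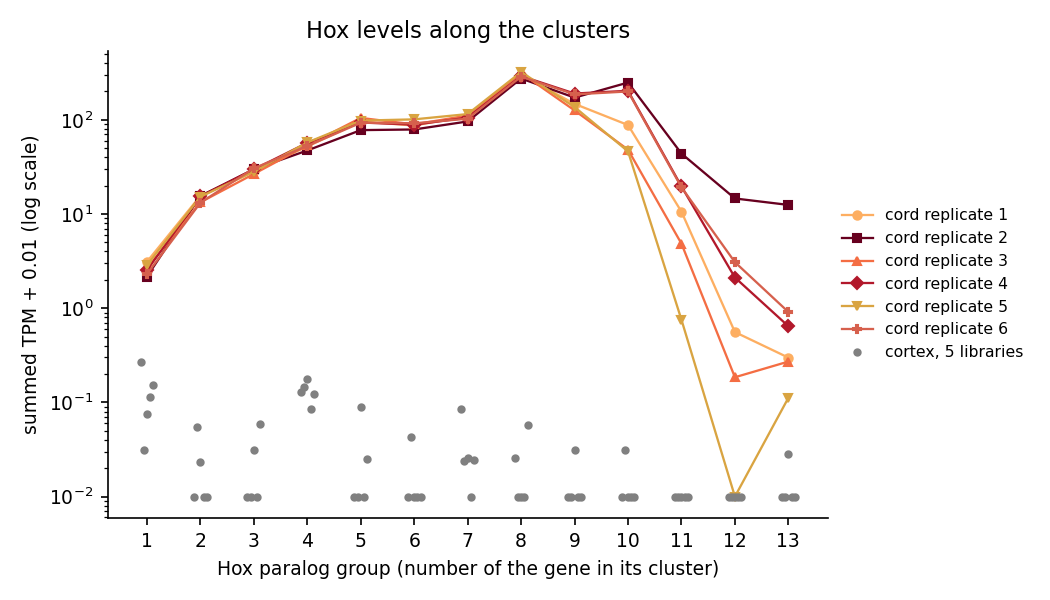
Summed level of each Hox paralog group, in TPM on a log axis with 0.01 TPM added, against the group number, with 1 line for each of the 6 cord libraries and grey points for the 5 cortex libraries. The 6 cord lines lie together up to group 8 and part from group 10 on, where replicates 2, 4 and 6 lie above replicates 1, 3 and 5.

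Summed by paralog group, the cord libraries were alike for anterior and thoracic groups and differed for posterior ones. From group 2 to group 8 the highest cord library was at most 1.35 times the lowest. Single genes of these groups spread more, such as Hoxa4 at 2.08 times, Hoxc5 at 2.51 times and Hoxc8 at 3.15 times. For the sum of group 10 the highest library was 5.38 times the lowest, and in group 11 58.9 times. Hoxc10, a gene of lumbar levels, stood at 29.7, 75.5, 18, 71.8, 21.1 and 69 CPM in replicates 1 to 6. Hoxd10 stood at 14.5, 47.6, 6.72, 28.6, 2.72 and 29.6 CPM, and Hoxa10 at 12.8, 33.9, 6.23, 31.9, 6.6 and 30.4 CPM, with replicates 2, 4 and 6 high in each. Hoxc8, a gene of brachial and thoracic levels, ran the other way, at 64.3, 23.2, 73, 38, 71.3 and 36.5 CPM. Hoxb8 differed by 1.07 times at most between the same libraries. The most caudal genes were seen mainly in replicate 2, where Hoxc12 stood at 4.6 CPM, Hoxc13 at 4.46 and Hoxb13 at 2.71, against at most 0.978, 0.462 and 0.0375 in any other cord library. Hoxc12 and Hoxc13 were at 0 in cord replicate 5, so their libraries overlapped those of cortex (adjusted p = 0.0221 and 0.0302). Without cord replicate 2, Hoxc13 no longer passed the filter and Hoxc12 had an adjusted p of 0.017, and Hoxc13 was not called without cortex replicate 1 or without replicate 2 (0.059 and 0.0656). In the 12 transgenic cords, Hoxc10 spread from 7.04 to 49.9 CPM of unscaled library totals and Hoxb8 from 89.2 to 187.

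Other spinal transcription factors were higher in cord in 32 of 38 tested members, 31 of them at least 2-fold (median log2 fold change 3.94), with 2 lower and 4 not called. The shares of all genes called higher and at least 2-fold higher were 35.8% and 10.9%. As with Hox genes, those high in cord alone could pass the filter, so the count only describes the list, and levels follow. Lbx1, which specifies dorsal association interneurons, stood between 13.3 and 15 CPM (median 14.3) in cord and had 3 counts in cortex. Pax2, of GABAergic and glycinergic interneurons, stood at 20.8, 25.3, 22.5, 26.6, 22.6 and 23.6 CPM in cord replicates 1 to 6 and at 0.134 to 0.339 CPM in cortex (log2 fold change 6.70 ± 0.17 SE, adjusted p = 2.94e-11). Pax8 was 10.1 to 13.1 CPM in cord and 0 to 0.119 CPM in cortex. Lmx1b and Tlx3, of dorsal excitatory neurons, stood at 15.4 to 18.8 CPM and 2.5 to 3.05 CPM in cord, against 0.0655 to 0.48 CPM and 0 to 0.0272 CPM in cortex. En1, of the inhibitory V1 interneurons, was 1.48 to 2.35 CPM in cord and 0.0132 to 0.155 CPM in cortex. Ebf1 had the highest cord level of the list, 68 to 80.8 CPM, with 6.78 to 10.3 CPM in cortex. Lhx9 and Zic2 were lower in cord, with log2 fold changes of −2.13 ± 0.42 and −1.58 ± 0.23, and in cortex both varied, Lhx9 from 1.09 to 8.15 CPM. Gata2, Shox2, Zic1 and Isl1 were not called, and in each of these the libraries of the tissues overlapped. Without cortex replicate 1, its highest cortex library, Shox2 was called higher in cord (adjusted p = 0.0184), and Zic1 was called without cortex replicate 1 or without replicate 3 (0.0174 and 0.048).

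The transmitters of the tissues differed in kind. The main vesicular glutamate transporter transcript was VGLUT1 in cortex and VGLUT2 in cord. Slc17a7 (VGLUT1) stood at 947, 965, 1123, 1105 and 971 CPM in cortex and at 3.29, 0.0812, 2.18, 3.99, 4 and 3.03 CPM in cord replicates 1 to 6, so that replicate 2 lay far under the other cords (log2 fold change −8.53 ± 0.46 SE, adjusted p = 1.15e-08). Slc17a6 (VGLUT2) stood at 219, 232, 214, 218, 204 and 226 CPM in cord and at 26.7, 22.4, 17.2, 27 and 32.5 CPM in cortex (log2 fold change 3.12 ± 0.14 SE, adjusted p = 2.33e-09). Per length of exon, Slc17a6 made up 98.7 ± 0.685% of both transporters in cord and 2.42 ± 0.64% in cortex (SD, n = 6 and 5). VGLUT3 (Slc17a8) was low in both, at 0.876 to 1.44 CPM in cord and 1.22 to 2.48 CPM in cortex.

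Genes of glycine transmission were higher in cord, and 1 of them was nearly exclusive to it. Slc6a5, which encodes the neuronal glycine transporter GlyT2 (chr7:49910146-49963856 in GRCm38), stood at 498, 567, 552, 528, 473 and 520.3 CPM in cord replicates 1 to 6 and 0.145, 0.118, 0.184, 0.0446 and 0.0952 CPM in cortex, the only gene other than Hox genes among the 20 largest rises named by rule (log2 fold change 12.09 ± 0.13 SE, adjusted p = 4.79e-14). Slc6a9, the glial transporter GlyT1, was 203 to 247 CPM in cord and 33.9 to 43.2 CPM in cortex, and Slc32a1, the vesicular carrier shared by GABA and glycine, 124 to 151 CPM and 50.2 to 68.5 CPM. The GABA synthesis genes were lower in cord, Gad1 at 196 ± 6.58 CPM against 309.5 ± 33.2 CPM and Gad2 at 138 ± 15.6 CPM against 177 ± 24.3 CPM (SD, n = 6 and 5), both under 2-fold. GAT3 (Slc6a11), a GABA transporter of astrocytes, was higher in cord (1.51 ± 0.07). GAT2 (Slc6a13) was lower in cord (−2.36 ± 0.46) and stood at 19.1, 10.2, 28.1, 4.09 and 13.2 CPM in cortex replicates 1 to 5, highest in replicate 3 and lowest in replicate 4 like the meningeal genes.

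Receptor genes differed along the same lines. All 6 genes of the glycine receptor and its scaffold were called higher in cord, 2 of them at least 2-fold, against 35.8% and 10.9% of all genes. Glra1, the adult alpha subunit, stood at 130.3, 121, 195, 78.9, 82.7 and 96.6 CPM in cord replicates 1 to 6 and at 0.208 to 0.748 CPM in cortex (log2 fold change 8.03 ± 0.27 SE, adjusted p = 2.23e-10). Glrb, the beta subunit, differed less, at 297 to 309 CPM against 152 to 192 CPM, and gephyrin (Gphn), which anchors glycine and GABA-A receptors, at 70.9 to 77.3 CPM against 52.7 to 56.9 CPM. Of 14 GABA-A receptor subunits 5 were called higher in cord and 8 lower, against 35.8% and 34.8% of all genes. The number called higher thus sets the list little apart. Gabrd, the extrasynaptic delta subunit, was 32.3 to 54.2 CPM in cortex and 0.452 to 1.02 CPM in cord (−5.76 ± 0.17). The alpha subunit gene Gabra4 was 90.9 to 108 CPM in cortex and 18.8 to 25 CPM in cord (−2.29 ± 0.07). Gabrq and Gabre were higher in cord, at 9.36 to 13.1 CPM and 2.57 to 3.77 CPM, against 0.536 to 3.26 CPM and 0.223 to 1.41 CPM. Gabrb2 was lower in cord (−1.95 ± 0.48) with overlapping libraries, since cord replicate 3 stood at 39.3 CPM and the other cords at 3.03 to 18.5.

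Glutamate receptor genes were mostly lower in cord. Of 26 genes for glutamate release and reception 17 were called lower and 6 higher, against 34.8% and 35.8% of all genes. Their median log2 fold change was −0.86. Grin2b, an NMDA receptor subunit, stood at 429.6, 427, 373, 346 and 343 CPM in cortex and between 49.6 and 89.4 CPM (median 61.9) in cord (log2 fold change −2.62 ± 0.08 SE, adjusted p = 9.23e-11). Grin2a and the AMPA receptor subunits Gria1 and Gria2 were lower as well (−1.66 ± 0.09, −1.43 ± 0.11 and −1.61 ± 0.06). Gria4 and Grin2d were higher in cord (0.93 ± 0.05 and 1.08 ± 0.06). The NMDA subunit Grin3b stood at 5.37 to 6.51 CPM in cord and 0.0565 to 0.183 CPM in cortex (log2 fold change 5.73 ± 0.20 SE, adjusted p = 2.69e-10), the largest rise in the list. Grm2, a presynaptic metabotropic receptor, was 34.3 to 51.2 CPM in cortex and 2.55 to 2.82 CPM in cord, and Grm4, which has a related role, was 21.5 to 30.8 CPM and 38 to 46.2 CPM, so that Grm4 made up 92.6 ± 0.45% of the pair per length in cord and 33.8 ± 6.56% in cortex.

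Genes of the postsynaptic density of excitatory spines were lower in cord. Of 20 listed genes 17 were called lower in cord, 16 of them at least 2-fold (median log2 fold change −2.11), and 2 higher. The matching shares of all genes were 34.8%, 12.8% and 35.8%. Camk2a, the alpha subunit of calcium/calmodulin kinase II, stood at 3264, 3558, 3957, 3672 and 3649 CPM in cortex and between 131 and 152 CPM (median 148) in cord (log2 fold change −4.62 ± 0.06 SE, adjusted p = 1.58e-13). Nrgn, neurogranin, was 533 to 808 CPM in cortex and 13.1 to 19.6 CPM in cord (−5.59 ± 0.15). Ddn, dendrin, was 1061 to 1373 CPM in cortex, and in cord it stood at 4.23, 6.28, 1.8, 14.2, 2.68 and 10.2 CPM in replicates 1 to 6. Icam5, an adhesion molecule of telencephalic dendrites, was 119.7 to 142 CPM and 2.01 to 2.49 CPM. Scaffold genes that many neurons use differed less, such as Dlg4 (PSD-95) at −1.39 ± 0.04 and Shank1 at −1.87 ± 0.07. The members higher in cord were Camk2g (0.64 ± 0.07) and Camk2d (0.28 ± 0.08), the other kinase subunits, both under 2-fold.

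Immediate early genes, which neuronal activity induces, were lower in cord in all 20 listed members, 19 of them at least 2-fold (median log2 fold change −2.88). The shares of all genes called lower and at least 2-fold lower were 34.8% and 12.8%. Arc stood at 152, 333, 285, 825 and 401 CPM in cortex replicates 1 to 5 and between 21.2 and 26.4 CPM (median 23.4) in cord (log2 fold change −3.95 ± 0.32 SE, adjusted p = 4.53e-07). Cortex replicate 4 was the highest for Arc, Egr1 and Fos, at 825, 630.3 and 111 CPM, while cord libraries lay within 30.3 to 42 CPM for Egr1 and 14 to 23.4 CPM for Fos. Egr3 was 105 to 265 CPM in cortex and 4.69 to 6.26 CPM in cord (−5.0 ± 0.22), and Bdnf, which varied little in either tissue, 19.7 to 21.4 CPM and 5.25 to 6.48 CPM (−1.82 ± 0.06). Jun differed least (−0.36 ± 0.08). In the 12 transgenic cortex libraries Arc ran from 22.6 to 305 CPM of unscaled totals.

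Several gene families used different members for the same role in the tissues. In 14 of 18 pairs of related genes, the member named for cord was called higher there and its partner lower, and in 11 of the 18 the more abundant member per length changed between tissues, with union exon lengths and with the longest transcript alike. These pairs were chosen by name with earlier results known, so the count describes them and no more. Syt2 and Syt1, calcium sensors of transmitter release, stood between 649.8 and 759 CPM (median 724) and between 199.8 and 219 CPM (median 206) in cord and at 31.7 to 78.4 CPM and 1243 to 1356 CPM in cortex. Per length, Syt2 made up 79 ± 1.25% of the pair in cord and 4.93 ± 1.51% in cortex (SD, n = 6 and 5). Vamp1 and Vamp2, vesicle SNARE proteins, ran in parallel, with Vamp1 at 56.9 ± 0.906% of the pair in cord and 5.1 ± 0.708% in cortex. Sv2c over Sv2b, vesicle glycoproteins, was 78.6 ± 0.82% and 13.4 ± 4.01%. Cplx1 over Cplx2, the complexins, was 87.5 ± 0.762% and 41.9 ± 2.73%.

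**Figure D3:**
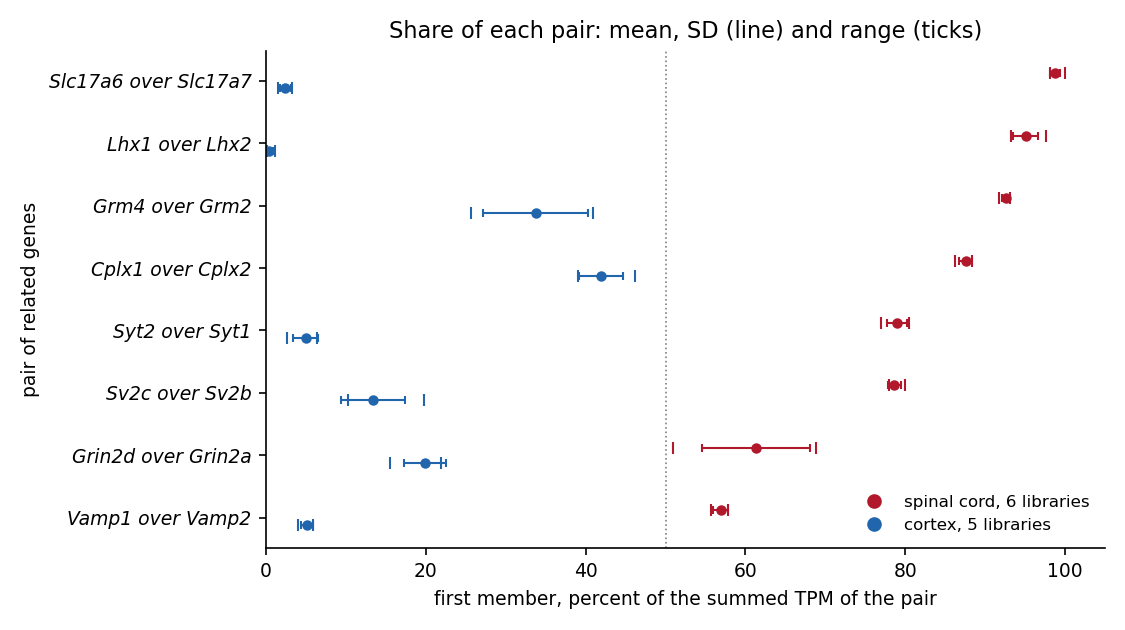
Share of the member named for cord in each of 8 of the 11 pairs of related genes, as a percent of the summed TPM of the pair, with the mean (point), SD (line) and lowest and highest library (ticks). Cord libraries lie above 50% and cortex libraries below 50% in every pair shown, with Slc17a6 over Slc17a7 the widest apart.

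In the other 7 pairs the more abundant member per length was the same in both tissues. Kif5a, a motor of axonal transport that is linked to ALS, made up 62.2 ± 3.05% of its sum with Kif5c in cord and 73.1 ± 2.86% in cortex. Kif5a was lower in cord, at 1453 ± 42.6 CPM against 2949.8 ± 647 CPM (log2 fold change −1.0 ± 0.11 SE, adjusted p = 6.06e-06), and cortex ranged over 2107, 3068, 2620.4, 3854 and 3100.3 CPM in replicates 1 to 5. Camk2d made up 25.1% of its sum with Camk2a in cord and 1.1% in cortex. This share depended on the gene length used, and with the longest transcript it was 47.6% in cord and 2.93% in cortex. Kcnc1 made up 72.2% and 60.5% of its sum with Kcnc2. Of 30 synaptic vesicle genes in all, 12 were called higher in cord and 16 lower, against 35.8% and 34.8% of all genes. Stx1a, a plasma membrane SNARE, was 10.8 to 14.2 CPM in cord and 140.2 to 202 CPM in cortex, whereas Snap25 differed by under 2-fold (0.21 ± 0.06). Cplx3, a complexin of few cell types, was 0.0281 to 0.0752 CPM and 8.18 to 12.8 CPM.

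Cholinergic and motor neuron genes were higher in cord in 18 of 19 listed members, 16 of them at least 2-fold, and in 18 the libraries did not overlap (median log2 fold change 3.15). The matching shares of all genes were 35.8%, 10.9% and 27.3%. Genes high in cord alone could pass the filter, so these counts only describe the list. Chat, which makes acetylcholine, stood at 21.9, 21.7, 24, 27.7, 28.9 and 26.4 CPM in cord and 0.872, 2.33, 0.805, 1.21 and 2.6 CPM in cortex (log2 fold change 4.01 ± 0.28 SE, adjusted p = 1.06e-07). Slc18a3, the vesicular acetylcholine carrier, was 31.8 to 41.5 CPM in cord and 0.33 to 1.16 CPM in cortex. Mnx1, a motor neuron factor, stood at 1.42 to 2.1 CPM in cord and had 1 count in cortex. Prph, peripherin, was 38 to 51.5 CPM and 0.762 to 1.17 CPM (5.52 ± 0.13). Chodl and Mmp9, of fast motor neurons, were 32.7 to 54.6 CPM and 8.09 to 13.9 CPM in cord, against 0.521 to 1.12 CPM and 2.16 to 3.36 CPM in cortex. Ret, a receptor for the GDNF family, was 108 to 137 CPM and 3.4 to 5.38 CPM, and Calca, the CGRP precursor, 14.5 to 23.8 CPM and 0.435 to 0.832 CPM. Isl1, the remaining member, was 1.58 to 3.04 CPM and 0.446 to 1.97 CPM with overlapping libraries (log2 fold change 0.76 ± 0.34 SE, adjusted p = 0.0643), and it was called without cortex replicate 2 or without replicate 5 (adjusted p = 0.0397 and 0.0282). Its relative Isl2 was 1.57 to 2.06 CPM and 0 to 0.0565 CPM.

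Neurofilament genes, which fill the calibre of large axons, were higher in cord. Nefh, the heavy subunit, stood at 1123, 1258, 1168, 1429, 1276 and 1485 CPM in cord replicates 1 to 6 and at 68.4, 91.8, 83.7, 95.3 and 91.3 CPM in cortex (log2 fold change 3.92 ± 0.09 SE, adjusted p = 8.93e-12). Nefm and Nefl followed with log2 fold changes of 3.21 ± 0.11 and 2.46 ± 0.05, and Ina, alpha-internexin, with 0.99 ± 0.06. Of 19 filament and axon transport genes 12 were called higher, 4 lower and 3 not at all. The shares of all genes called higher and lower were 35.8% and 34.8%. At the node of Ranvier, Epb41l3, Cntn2 and Nfasc were higher in cord (1.76 ± 0.07, 1.35 ± 0.13 and 1.06 ± 0.06), and Sptbn4 and Nrcam lower (−0.67 ± 0.06 and −0.51 ± 0.06). Cord replicate 3, the library with the highest RNA integrity, was the highest cord for Map2, a dendritic microtubule gene, at 1208 CPM against 583 to 844, as it was for Gabrb2. With RNA integrity as a covariate, the log2 fold changes were −0.33 for Map2 and −2.03 for Gabrb2 (adjusted p = 0.0241 and 0.00322), and both calls held. The Map2 call was marginal in the main fit (adjusted p = 0.0434). It was lost without cortex replicate 2, 4 or 5, and without cord replicate 1, 2, 4, 5 or 6. It was also lost without the sex term and in females alone (0.728), where Gabrb2 was not called either (0.14).

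Ion channel genes were called in both directions, as were genes at large. Of 26 potassium and HCN channels 9 were called higher in cord and 15 lower, and of 9 sodium channel genes 3 higher and 5 lower. Over all genes 35.8% were called higher and 34.8% lower. Kcnj10, the Kir4.1 channel of astrocytes and oligodendrocytes, was 1135 to 1286 CPM in cord and 298 to 429.9 CPM in cortex (1.71 ± 0.07). Scn4b, an auxiliary sodium channel subunit, was higher in cord (1.61 ± 0.31), and its cortex values of 57.1, 221, 106, 109 and 238 CPM were highest in replicates 2 and 5, as for the striatal genes. Lower in cord were Kcnj4 (0.185 to 0.422 CPM against 64.6 to 79 CPM), Kcnv1 (1.37 to 1.86 CPM against 51.6 to 72.4 CPM) and Kcnq5 (15.5 to 18.4 CPM against 93.5 to 104 CPM). Scn2a was lower (−1.82 ± 0.09), Scn1a higher (1.29 ± 0.18) and Scn8a not called (0.08 ± 0.07, adjusted p = 0.316). The muscarinic receptor Chrm1, of forebrain neurons, was 145 to 159.9 CPM in cortex and 0.806 to 0.923 CPM in cord.

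Neuropeptide genes were called in both directions. Of 22 peptide genes 9 were called higher in cord and 7 lower, against 35.8% and 34.8% of all genes, so these counts set the list little apart. Cck, Vip and Npy, of cortical neurons, were lower in cord (−3.10 ± 0.09, −3.69 ± 0.25 and −2.07 ± 0.09), as was Sst with under 2-fold (−0.79 ± 0.10). Calca, Calcb, Gal, Nts and Tac2 were higher (5.00 ± 0.19, 5.09 ± 0.17, 3.80 ± 0.52, 2.35 ± 0.28 and 2.12 ± 0.16), with Gal at 4.54 without cortex replicate 3, and Nmu stood at 1.78 to 2.62 CPM in cord with 2 counts in cortex. Penk and Tac1, of dorsal horn and striatum, were not called, at 47, 129.9, 44.9, 35.6 and 135 CPM for Penk in cortex replicates 1 to 5 and 87.7 to 141 CPM in cord. Without cortex replicates 2 and 5 the Penk log2 fold change was 1.42 (adjusted p = 2.64e-05), it was also called without replicate 2 alone (0.0297), and that of Tac1 was 0.85 (adjusted p = 0.00137). Of 15 opioid, tachykinin and related peptide receptors 6 were called higher and 9 lower. Tacr1 and Tacr3, the receptors of substance P and neurokinin B, were higher in cord (1.92 ± 0.21 and 3.35 ± 0.14), as was the kappa opioid receptor Oprk1 (1.47 ± 0.17), while Sstr4 and Cckbr, for somatostatin and cholecystokinin, were lower (−3.53 ± 0.15 and −1.44 ± 0.10). Of 12 serotonin receptors 3 were higher, Htr2c, Htr7 and Htr1d (1.70 ± 0.14, 1.39 ± 0.08 and 1.38 ± 0.30), and 7 lower, such as Htr6 (−1.54 ± 0.12). Oprm1 was called higher in cord (2.34 ± 0.55), at 1.8, 1.04, 6.37, 0.45, 0.661 and 0.494 CPM in replicates 1 to 6, with replicate 3 the highest and a log2 fold change of 1.76 without it. Of 16 markers of cortical interneurons 4 were called higher in cord and 9 lower (median log2 fold change −0.72). Beside the peptides above, Calb2 (2.94 ± 0.33) and Pvalb (0.89 ± 0.13) were higher in cord and Cort and Calb1 lower (−6.04 ± 0.29 and −1.58 ± 0.10).

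Myelin genes were abundant in both tissues and higher in cord. All 34 oligodendrocyte and myelin genes were called higher in cord, 30 of them at least 2-fold, and in 33 no libraries overlapped (median log2 fold change 1.90). The matching shares of all genes were 35.8%, 10.9% and 27.3%. Their summed level was 21139 to 35160.5 CPM in cord and 3420.4 to 8467 in cortex. Mbp, myelin basic protein, stood at 11201, 7772, 10148, 10687, 14255 and 9842 CPM in cord replicates 1 to 6 and 1438, 1881, 963, 2750.3 and 1916 CPM in cortex replicates 1 to 5 (log2 fold change 2.59 ± 0.24 SE, adjusted p = 1.38e-06). Mag and Mog, glycoproteins of the myelin sheath, had log2 fold changes of 2.35 ± 0.22 and 2.19 ± 0.22. Factors of the whole oligodendrocyte lineage differed less, with Olig2 at 0.71 ± 0.12, Olig1 at 0.86 ± 0.08 and Sox10 at 1.35 ± 0.13. Klk6, a secreted protease of oligodendrocytes, stood out at 59.9 to 144 CPM in cord and 0.847 to 2.78 CPM in cortex (log2 fold change 5.54 ± 0.31 SE, adjusted p = 1.73e-08). Their sum was lowest in replicate 3 and highest in replicate 4 of cortex, and lowest in replicate 2 and highest in replicate 5 of cord. Of the 13 genes listed for oligodendrocyte precursors 4 were higher in cord and 6 lower, against 35.8% and 34.8% of all genes. Pdgfra, the receptor that defines them, was lower (−0.83 ± 0.06), as was Gpr17 (−1.10 ± 0.13), and the newly forming oligodendrocyte genes Enpp6 and Bcas1 were higher (2.84 ± 0.28 and 1.91 ± 0.21).

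Cholesterol synthesis, which supplies myelin, was higher in cord in 20 of 23 genes, 7 of them at least 2-fold (median log2 fold change 0.89). The matching shares of all genes were 35.8% and 10.9%. Cyp51, lanosterol demethylase, was 149 ± 17.8 CPM in cord and 62.5 ± 8.2 CPM in cortex (SD, n = 6 and 5). Srebf2, the factor that drives the pathway, was slightly lower (−0.15 ± 0.04), a call lost without cortex replicate 2 (adjusted p = 0.0561).

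Astrocyte genes did not move together. Of 24 general astrocyte genes 13 were called higher in cord and 8 lower, against 35.8% and 34.8% of all genes. Their median log2 fold change was 0.24, and their summed level was 10317 to 10841 CPM in cord and 9453 to 10991 in cortex. The glutamate transporters were lower in cord: Slc1a3 (GLAST) stood between 124 and 158 CPM (median 135) in cord and 698, 690.4, 682, 707 and 675 CPM in cortex (log2 fold change −2.32 ± 0.06 SE, adjusted p = 3.51e-11), and Slc1a2 (GLT-1) had a log2 fold change of −0.69 ± 0.10. Aqp4, the water channel of endfeet, was higher (1.92 ± 0.09), as were S100b (2.45 ± 0.11), Slc7a10 (1.47 ± 0.05) and Atp1b2 (1.49 ± 0.04). Sox9 did not differ detectably, at 40.7 ± 3.43 CPM and 41.3 ± 2.84 CPM (log2 fold change −0.01 ± 0.05 SE, adjusted p = 0.857). The 13 genes listed for fibrous astrocytes did not move together either, with 6 called higher, 4 lower and 3 not at all. Their log2 fold changes ran from −7.42 to 3.62. Gfap, the filament of fibrous astrocytes, stood at 1773, 1056, 1708, 1594, 2532 and 1455 CPM in cord replicates 1 to 6 and 265, 162, 233, 145 and 184 CPM in cortex (log2 fold change 3.09 ± 0.23 SE, adjusted p = 2.27e-07). Like the myelin genes, Gfap was lowest in replicate 2 and highest in replicate 5 of cord, but in cortex it was lowest in replicate 4, where myelin was highest. Agt, angiotensinogen, was 135 to 182 CPM and 6.19 to 19.5 CPM (3.62 ± 0.28). Crym, a member of the same list and also a cortex and striatum gene, was 0.0348 to 0.414 CPM and 21.6 to 66.5 CPM.

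Most listed microglial genes were modestly lower in cord, with 16 of 20 called lower and 2 higher (median log2 fold change −0.38). Over all genes 34.8% were called lower. In 8 of the 20 every cord library lay below every cortex library, as in 25.0% of all genes. Their summed level overlapped between the tissues, at 484 to 673 CPM in cord and 557 to 635 in cortex, with cord replicate 5 the highest library. P2ry12 was 19.5 to 26.3 CPM in cord and 35.6 to 44.9 CPM in cortex (−0.84 ± 0.09), Cx3cr1 −0.66 ± 0.08 and Tmem119 −0.61 ± 0.09. The largest fall was Fcrls (−3.36 ± 0.20). Sall1 (0.76 ± 0.06) and Ctss (0.43 ± 0.09) were higher. Endothelial genes differed little, with 9 of 16 lower, 3 of them without overlap of the libraries, and 2 higher (median log2 fold change −0.19), with Pecam1 at −0.25 ± 0.05. The largest rise among them was Mfsd2a, a lipid carrier of the blood-brain barrier (1.24 ± 0.09). Foxj1, of ciliated ependymal cells, was 14.7 to 20.8 CPM in cord and 2.78 to 5.87 CPM in cortex (2.26 ± 0.18). Of 13 ependymal genes 5 were called higher and 3 lower. With 35.8% and 34.8% of all genes called so, these counts set the list little apart.

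**Figure D4:**
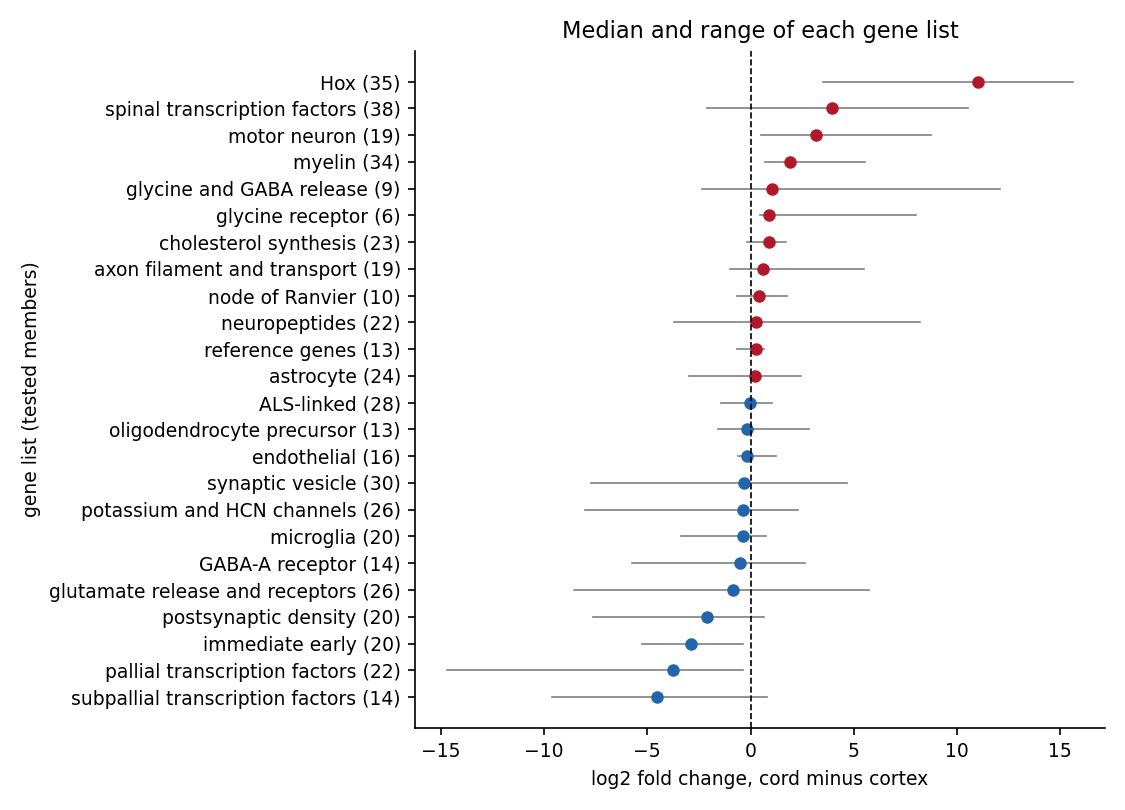
Median log2 fold change, cord minus cortex, of the tested members of 24 gene lists (points, with thin lines from the lowest to the highest fitted member) beside the median over all 20898 genes (dashed line). The Hox list is drawn with genes of 3 or fewer cortex counts at their bound or ratio, and it lies at the top, with the forebrain factor lists and immediate early genes at the bottom.

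The naming rule took the 20 largest log2 fold changes each way among called genes with at least 5 CPM in the higher tissue. The rises were 19 Hox genes and Slc6a5. Further falls were Emx2, a pallial factor (7.73 to 9.17 CPM in cortex and 0.0188 to 0.0661 CPM in cord), Nr2e1, a neural stem cell and forebrain factor (16.7 to 20.3 CPM in cortex and 0 to 0.011 CPM in cord), Rtn4rl2, a Nogo receptor (11.8 to 12.8 CPM and 0.0116 to 0.125 CPM), Ankrd63 (19.9 to 40.6 CPM and 0 to 0.0322 CPM), Dlx6 (4.91 to 8.52 CPM and 0 to 0.0188 CPM) with its antisense neighbour Dlx6os1, and the genes Gh, Prl and Ttr. The strand setting of the counting is not given, so reads of Dlx6 and Dlx6os1 cannot be told apart.

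Some differences followed single libraries, and their size depends on them. Schwann cell genes were called higher in cord in 11 of 14 members, against 35.8% of all genes. Of these members Sox10 is shared with oligodendrocytes. Prx, of peripheral myelin, was high in cord replicates 1, 2, 4 and 6, while replicates 3 and 5 lay below the cortex libraries (0.699 to 1.03 CPM). Without replicates 3 and 5 the log2 fold change of Prx was 5.91 in place of 5.36. Skeletal muscle genes were called higher in 9 of 13 members, from low levels. In 4 of the 13 the libraries did not overlap, against 27.3% of all genes with all cord libraries above. Ckm, muscle creatine kinase, stood at 7.96, 0.614, 0.582, 6.59, 0.285 and 2.35 CPM in cord replicates 1 to 6 and 0 to 0.0816 CPM in cortex. Acta1, skeletal actin, overlapped between the tissues (log2 fold change 0.82 ± 0.77 SE, adjusted p = 0.358). Of the 13 striatal genes 9 were called lower in cord and none higher, against 34.8% and 35.8% of all genes. Drd2, a dopamine receptor, at 8.51, 32.5, 8.81, 8.17 and 35.6 CPM in cortex and 14.6 to 17.1 CPM in cord, was not called. Without cortex replicates 2 and 5 its log2 fold change was 0.89 (adjusted p = 3.07e-06), so Drd2 was then called higher in cord. Drd1 was −4.30 ± 0.33 with all libraries and −3.61 without these 2. Choroid plexus genes were high in cortex replicate 1, and without it the Ttr log2 fold change was −7.58 in place of −9.38. Growth hormone and prolactin (Prl) were among the 20 largest falls by the rule for naming genes, and Prl stood at 1.85, 1.57, 47, 3.84 and 9.33 CPM in cortex. Each had 1 count in the 6 cord libraries together, a cortex to cord ratio of 30019.7 (95% counting interval 5388 to 1185720) for Gh and 6842 (95% counting interval 1228 to 270251) for Prl, which cortex replicate 3 dominates. Cga and Pomc, other pituitary genes, chosen after their values were seen, were also highest in cortex replicate 3, at 14.7 and 7.86 CPM.

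**Figure D5:**
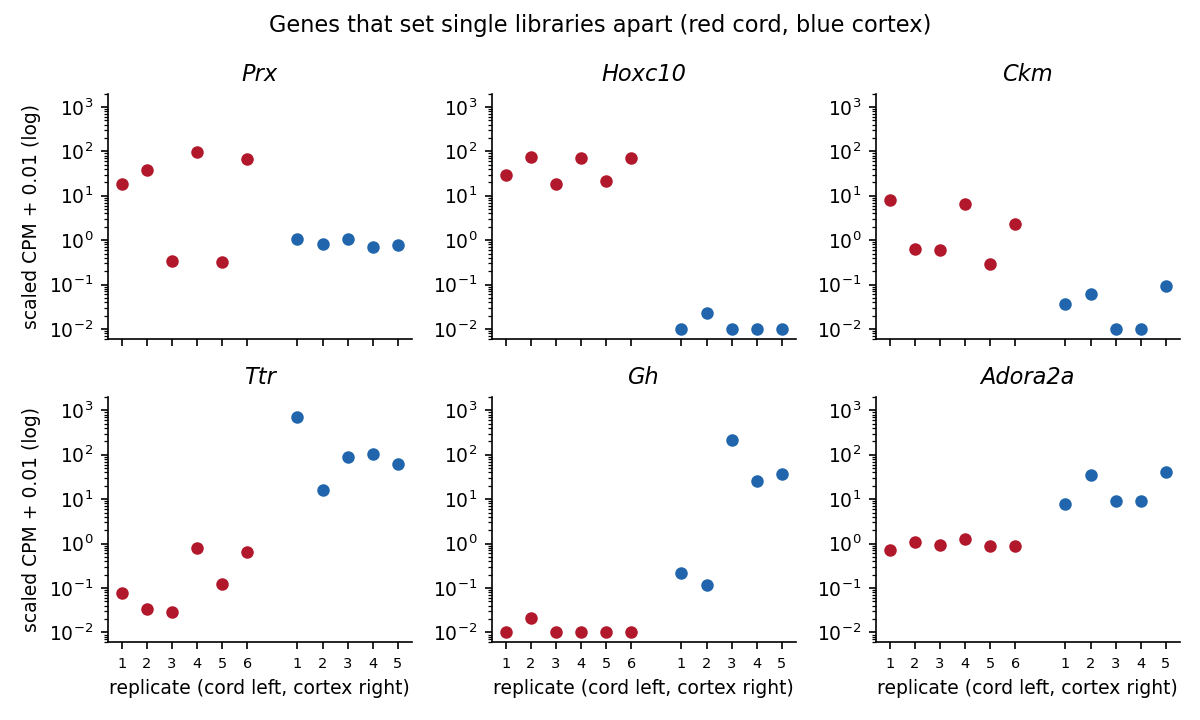
Scaled CPM of 6 genes in each library on a log axis with 0.01 CPM added, showing Prx, Hoxc10 and Ckm in cord and Ttr, Gh and Adora2a in cortex. Libraries of the same tissue lie far apart, with Prx lowest in cord replicates 3 and 5, Hoxc10 lowest in cord replicates 1, 3 and 5, and Gh highest in cortex replicate 3.

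Meningeal genes, also from outside the parenchyma, were lower in cord in 11 of 19 members and higher in 1, against 34.8% and 35.8% of all genes. Among the cortex libraries, replicates 3 and 1 were highest and replicate 4 lowest. Igf2 stood at 202, 74.6, 202, 45.7 and 108 CPM in cortex replicates 1 to 5 and 14.3 to 24.6 CPM in cord (log2 fold change −2.69 ± 0.36 SE, adjusted p = 3.52e-05). Slc22a6, a transporter of meningeal cells, was 3.33 to 24.3 CPM and 0 to 0.367 CPM. The summed level of the list was 146 to 288 CPM in cord and 203 to 679 in cortex, so that the tissues overlapped. These markers of adjoining tissue differed between libraries of a group, and their part in the other differences was not tested. In the transgenic libraries the same genes ranged widely too, Prx from 0.333 to 151 CPM in 12 cords and Ttr from 3.41 to 496 CPM in 12 cortices, as shares of unscaled library totals.

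Genes linked to ALS, the disease the series models, were called in both directions. Of 28, 12 were called higher in cord, 10 lower and 6 not at all (median log2 fold change −0.01). Over all genes 35.8% were called higher and 34.8% lower, so these counts set the list little apart. Optn, C9orf72, Stmn2 and Vapb were higher (1.06 ± 0.05, 0.91 ± 0.04, 0.71 ± 0.05 and 0.66 ± 0.03). Unc13a, Anxa11, Kif5a and Tia1 were lower (−1.43 ± 0.07, −1.27 ± 0.08, −1.0 ± 0.11 and −0.76 ± 0.04). Mouse Pfn1 stood at 71 ± 5.66 CPM in cord and 74.7 ± 3.24 CPM in cortex and was not called (log2 fold change −0.07 ± 0.05 SE, adjusted p = 0.241), although it was without cortex replicate 4 (−0.12, adjusted p = 0.0246). Atxn2, the target of the vector in other arms, was slightly higher in cord, at 113 to 127 CPM against 93.6 to 108 CPM (log2 fold change 0.22 ± 0.04 SE, adjusted p = 7.02e-04). Genes often used as references also differed between tissues, 8 of 13 higher and 3 lower, each under 2-fold, from −0.65 ± 0.04 for Ywhaz to 0.66 ± 0.03 for Sdha, and Actb was not called (−0.06 ± 0.04, adjusted p = 0.141; without cortex replicate 4, 0.0309).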

How the data were processed

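The authors deposited raw expected counts, 1 value for each gene and library. Per the submitters' processing notes the tools were RSEM 1.3.2, STAR 2.7.2d, DESeq2 1.34.0 and bcl2fastq 2.20, and the builds GRCm38 and GRCh38. No source used here states a strand setting. Expected counts were rounded, and 55141 of 55401 mouse genes were matched to GENCODE M21 for symbols, lengths and GRCm38 coordinates. Libraries were grouped by title. Genes passing filterByExpr were fitted with edgeR 4.0.16 (TMM, quasi-likelihood, R 4.3.3) on tissue and sex over the 6 cord and 5 cortex libraries, and Benjamini-Hochberg adjusted p-values under 0.05 were called. Values are CPM after TMM scaling. TPM were computed from exon unions. Sequences are from RefSeq. Depth was 67.5 to 109.29 M counts, and counting intervals are exact at 95%, covering counting error only. On simulated counts for this comparison with 100 genes changed 2-fold and 100 changed 4-fold among 20898, 76% and 89% were recovered. There 4 calls were false (2.37% of calls). These rates need not hold for the data, in which 70.6% of genes were called.

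The members and gene lists were chosen with earlier results of these data known. Named genes are members of these lists and pairs, and the 20 largest called changes each way at 5 CPM or more in the higher tissue. Cga and Pomc were added after seeing values. Some genes that the rule names are not reported here. Alternatives covered scaling, filters, DESeq2 1.42.0, limma 3.58.1 voom, covariates, sexes, replicate blocks and left-out libraries, of which the 3 pairs of left-out libraries were chosen after seeing the data. For same-numbered cord and cortex libraries, by library name, deviations from the tissue means correlated at r = 0.135 to 0.219 in 5 pairs. Pairs 4, 5 and 6 were best matches both ways, and pairs 1 and 2 were not. These numbers also follow sex. With sex removed r was −0.06 to 0.133, and only pair 4 was a best match both ways. By title number, which gives the same pairs 1 and 2, r was −0.227 to 0.151 and no pair was a best match. The labels do not say that a number marks 1 mouse, so the block was kept as an alternative.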

Additional observations from a re-analysis of the deposited data

Results flagged for a closer look

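Single libraries lay far from the rest of their group in 23 of 399 groups of values (Dixon's test at 95% within each tissue, for named genes with a library at 1 CPM or more). That is 5.76% of the groups, and chance flags about 1 in 20. All values here are scaled CPM.

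In cord, replicate 2 was high for Hoxc12 (4.6 against at most 0.978 in the others), Hoxc13 (4.46, at most 0.462), Hoxb13 (2.71, at most 0.0375), Pax8 (13.1, at most 10.9) and Gria1 (161, at most 138). These 3 posterior Hox genes mark caudal levels of the body axis, and replicate 2 was also the highest of the 6 for Hoxc10 and Hoxd10. Cord replicate 3 was high for Oprm1 (6.37, at most 1.8) and low for Camk2a (131, at least 146) and Cck (12.1, at least 14.9). Cord replicate 5 was high for Gabrq (13.1, at most 10.6) and Jun (62.2, at most 51.2), and cord replicate 1 low for Fos (14, at least 20).

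In cortex, replicate 1 held 7 of the 12 values apart. It was high for the choroid plexus gene Ttr (704, at most 102) and the ependymal factor Foxj1 (5.87, at most 3.65). It was low for the synaptic genes Snap25 (1803, at least 2195) and Unc13a (322, at least 406). It was also low for the potassium channel Kcnc1 (181, at least 209), for Cux1 (75.8, at least 100.2) and for Acta1 (2.97, at least 5.12). Replicate 3 was high for the pituitary genes Gh (218, at most 36.7), Prl (47, at most 9.33) and Cga (14.7, at most 1.38), and for Gata2 (5.97, at most 4.62), a factor that the pituitary also expresses. Replicate 2 was low for Jun (49.4, at least 66.5). Whether choroid plexus or pituitary in a sample has a part in these values was not tested.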

How the results depend on the processing

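The number of genes called was within 1.5 times of 14755 under every setting run, from 10949 in females alone to 15235 without a filter, and from 14068 to 14622 without each library in turn. The number at least 2-fold apart (4957) was 4780 to 5213 without each library, 2845 with genes at 1 CPM or more in 5 libraries, where 15220 genes were tested, and 3261 when edgeR tested against 2-fold itself. With a replicate block by library-name number 14868 genes were called, and by title number 13014. Among named genes, the library-name block gave Zic1 a call and ended that of Ptprc, the title block ended those of Snap25, Pomc, Ptprc, S100a8 and S100a9, and neither block changed another call. With RNA integrity as a covariate Ptprc lost its call and no other named gene changed. The lower mitochondrial share in cord kept its direction and side of 0.05 without each library (difference −0.940 to −0.689 percentage points).

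Of 231 named genes with a fit, 206 had no change of call, and no turn of a called direction, under the settings in which they were tested. Left-out single libraries ended the calls of Hoxc13, Kif5c, Map2, Pomc, Ptprc, S100a8 and Srebf2, and gave calls to Actb, Isl1, Penk, Pfn1, Shox2 and Zic1. With limma-voom, Ckm, Hoxc12, Hoxc13, Hoxd10, Prx and Ptprc were not called, Prx at an adjusted p of 0.352. The sign turned between the main fit and an alternative, with a call in only 1 of them, for Drd2 and Pomc. Drd2 was not called at −0.27 in the main fit and was called at 0.89 without cortex replicates 2 and 5. Pomc was called lower in cord in the main fit and stood at 0.0611 in females alone, where it was not called. Some genes that were not called also changed sign, such as Acta1 at −0.10 with limma-voom and Bcan at 0.03 in females alone. The females alone are 3 cord and 2 cortex libraries. The number of pairs of related genes whose more abundant member changed was 11 with either gene length. The cause of these changes was not tested.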

Other observations

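Further gene groups had members that differed between the tissues, given here as log2 fold changes, cord minus cortex, ± SE and tested as above. The counts of calls stand beside 35.8% of all genes called higher and 34.8% lower, and counts near these set a group little apart. Of 14 genes of retinoic acid signalling, 2 were called higher in cord and 11 lower. Aldh1a1, a retinaldehyde dehydrogenase, stood at 68.3 to 107 CPM in cord and 11.1 to 20.6 CPM in cortex (2.48 ± 0.15), and Crabp1, a retinoic acid binding protein, was higher as well (3.20 ± 0.24). Crabp2 and Aldh1a2 were lower (−3.54 ± 0.41 and −2.34 ± 0.44). Of 12 genes of perineuronal and perinodal matrix, 4 were higher and 5 lower. Aggrecan (Acan) stood at 27.5 to 33.1 CPM in cord and 3.8 to 4.95 CPM in cortex (2.73 ± 0.07), Hapln2, a link protein of nodes, had a log2 fold change of 2.47 ± 0.22, and neurocan (Ncan) was lower at −1.46 ± 0.05. Brevican (Bcan) was not called (−0.01 ± 0.03).

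Among 14 antigen presentation and border macrophage genes 3 were higher and 3 lower, against 35.8% and 34.8% of all genes. H2-D1, a class I gene, was higher in cord (1.12 ± 0.12), and Mrc1 and Lyve1, of border macrophages, were lower (−1.74 ± 0.32 and −1.95 ± 0.41). Of 10 sensory ganglion genes tested, 5 were higher and 2 lower. Pou4f1, of sensory and some spinal neurons, was higher (5.79 ± 0.31), as was the mechanosensitive channel Piezo2 (2.51 ± 0.22). The nociceptor channel Scn10a was called lower in cord, at 0 to 0.0375 CPM against 0.0917 to 0.585 CPM in cortex. Of 10 hippocampal markers 9 were lower, and in 5 every cord library lay below every cortex library, against 25.0% of all genes. Adra2a, the alpha-2A adrenergic receptor, was higher in cord (1.33 ± 0.12) and Adrb1 lower (−2.85 ± 0.12). Of 9 blood genes tested 4 were called higher in cord, Slc4a1, S100a9, S100a8 and Ptprc (3.04 ± 0.69, 2.00 ± 0.55, 1.69 ± 0.59 and 0.30 ± 0.12), each with overlapping libraries. With edgeR's test, the call of Ptprc was lost without any of cord replicates 1, 5 and 6 or cortex replicates 1, 3, 4 and 5 (adjusted p up to 0.146), and that of S100a8 without cord replicate 4 or 6 or cortex replicate 3 or 4 (up to 0.0615). None of the 4 haemoglobin genes was called, with Hbb-bs at 28.7, 22, 13.1, 107, 55 and 103 CPM in cord replicates 1 to 6 and 21.9, 49, 47, 104 and 80.9 CPM in cortex.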
